A study of Arabidopsis thaliana with 20 samples.

Results

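Transcript changes with leaf age were followed in wild-type Arabidopsis thaliana of the accession Col-0, the common laboratory strain of this plant. The comparison set 5 libraries from rosette leaves of plants 45 days after sowing (DAS) against 5 libraries from rosette leaves at 25 DAS, chosen by their sample labels, which is 10 of the 20 libraries in the series. The other 10 libraries came from a snrk2.4/snrk2.10 mutant, which lacks a pair of stress-related protein kinases, at the same ages. All plants grew in a chamber in long days, and no treatment is named for either group. Which leaves of the rosette were taken, how many plants went into a library and the hour of collection are not given in the sources used here. Since nothing says that the libraries came from separate plants, the p-values measure only the spread between these samples. Reads came from the 3′ ends of transcripts, so a count stands roughly for a transcript whatever its length.

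Leaf senescence is the last phase of leaf development, in which a leaf dismantles its chloroplasts and exports nitrogen, phosphate and metals to the growing parts of the plant. It is driven by transcription factors, many of them of the NAC and WRKY families, and is promoted by abscisic acid (ABA), ethylene, jasmonate and salicylic acid and delayed by cytokinin. Chlorophyll is removed by a dedicated enzyme series, while proteins are broken down in the vacuole, through autophagy and by the proteasome.

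Total counts ran from 985639 to 2343212 at 25 DAS and from 637536 to 1223813 at 45 DAS, and a count of 0 allowed up to 1.65 to 3.70 CPM, the count of a gene scaled to the effective size of its library, in a single library. Of 14503 genes tested, 70.6% were called at an adjusted p under 0.05 with edgeR. Among all tested genes, 5237 (36.1%) were called higher at 45 DAS and 5002 (34.5%) lower. Changes of at least 2-fold were called upward in 23.7% and downward in 25.3% of the tested genes. The values of the 5 older and the 5 younger libraries did not overlap for 54.8% of the tested genes. These shares are the background against which the counts of each pathway below should be read. The pool of transcripts also spread out: 226 to 240 loci held 50% of the counts at 25 DAS, against 856 to 1016 at 45 DAS. TMM scaling, which uses a trimmed mean of log ratios, is meant to correct for such a shift in makeup. It assumes that most genes do not change, or that rises and falls balance. Whether this held, with 70.6% of the tested genes called, was not tested. On library totals alone, fold changes moved up by a median of 0.65 on the log2 scale, with 8108 genes (55.9%) higher and 3288 (22.7%) lower, so that 71.1% of the calls were upward against 51.1% in the scaled comparison. Lists whose direction turns with this choice are named where they occur.

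**Figure D1:**
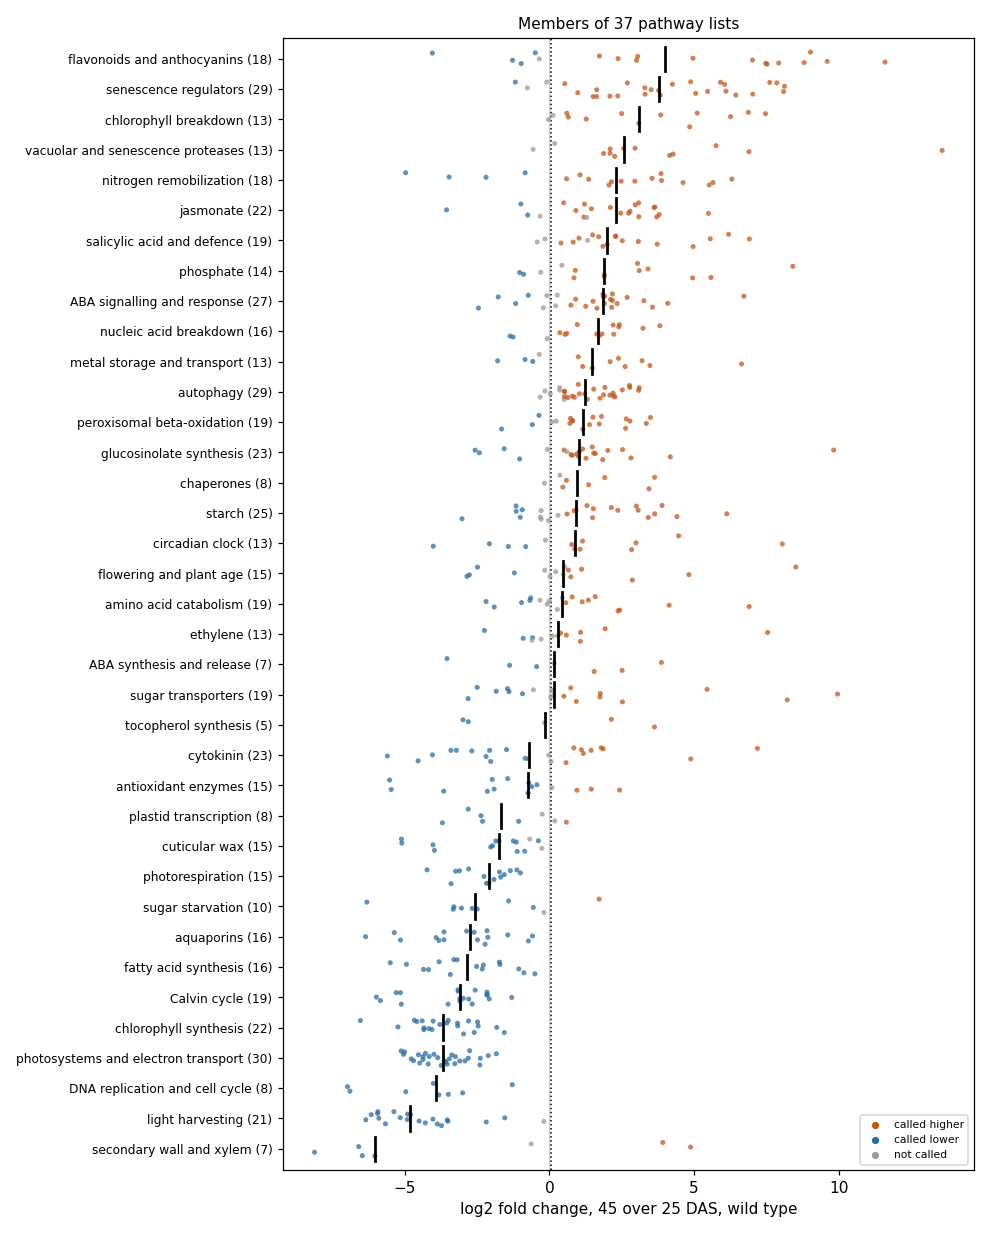
Log2 fold change of each tested member (points, one row per pathway list, number tested in brackets) between 25 and 45 DAS in wild type, with black bars at each list's median and a dotted line at the median of all genes. Light harvesting, photosystems, chlorophyll synthesis and the Calvin cycle lie almost wholly on the left, and senescence regulators, chlorophyll breakdown, proteases and autophagy on the right.

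The photosynthetic apparatus lost most of its transcripts. The 5 largest losses in CPM were sought among called genes whose younger and older libraries did not overlap. They included RBCS1A and RBCS3B, which encode the small subunit of Rubisco. The rest were LHCA4 and LHCB1.3, antenna proteins of photosystems I and II, and PETE2, which encodes plastocyanin. RBCS1A stood at 36939, 36962, 33841, 35484 and 34229.5 CPM at 25 DAS and at 2340.0, 604, 686, 934 and 415 CPM at 45 DAS (log2 fold change -5.16, SE 0.37, adjusted p 3.12e-12). Every older library was far below every younger one, and replicate 1 held the most at 45 DAS. Without it, the log2 fold change of RBCS1A was -5.83. LHCA4 stood at 15206, 14966, 14143, 15272 and 14188 CPM at 25 DAS and at 1562, 513, 563, 793 and 325 CPM at 45 DAS (log2 fold change -4.30, SE 0.30, adjusted p 2.20e-12). The other 3 fell too, RBCS3B from 16116 ± 608 to 279 ± 330.4 CPM, LHCB1.3 from 14403 ± 238 to 282 ± 304 CPM and PETE2 from 11087 ± 607 to 344 ± 276 CPM (mean ± SD, n = 5 libraries, as throughout). In bulk leaf tissue, fewer cells of a type and less RNA per cell cannot be told apart.

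Of the 21 light-harvesting genes tested, 20 were lower and none higher (median log2 fold change -4.81, against 0.07 over all tested genes). All 30 nuclear genes of the photosystems and electron transport were lower (median -3.68), as were all 19 of the Calvin cycle (median -3.10) and all 15 of photorespiration (median -2.10). As a share of all counts, which is a scaling by library totals, light harvesting went from 10.4% ± 0.186 to 0.759% ± 0.514, the photosystem list from 10.5% ± 0.154 to 1.38% ± 0.687 and the Calvin cycle from 8.09% ± 0.179 to 0.879% ± 0.443. LHCB4.1, a minor antenna of photosystem II, fell from 5099 ± 205 to 383 ± 186 CPM (log2 fold change -3.74, adjusted p 2.69e-13). PSAE1, a subunit of photosystem I, fell from 4109.8 ± 249 to 209.8 ± 98.3 CPM (log2 fold change -4.29, adjusted p 1.05e-14). PSBR, a subunit of photosystem II, kept more of its transcript than most of its list, going from 9391 ± 399 to 2162 ± 737 CPM (log2 fold change -2.12, adjusted p 4.60e-10). PGK1, the phosphoglycerate kinase of the Calvin cycle, fell from 1719.9 ± 68.0 to 192 ± 79.6 CPM (adjusted p 2.12e-13, log2 fold change -3.16). The photorespiratory genes went down less far: GGT1, a peroxisomal aminotransferase, fell from 1966 ± 90.5 to 593 ± 149.8 CPM (log2 fold change -1.73, adjusted p 2.22e-10), and DIT1, a dicarboxylate carrier of the chloroplast envelope, from 559 ± 35.3 to 80.5 ± 11.3 CPM (adjusted p 2.90e-15, log2 fold change -2.80). The ages did not overlap for any gene named in this paragraph.

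Of the 21 light-harvesting promoters, taken as the 300 bases upstream of the annotated gene start, 11 (52.4%) held the letters ACGTG on either strand, against 25.6% of all 27443 promoters read. The longer CACGTG, known as the G-box and containing ACGTG, was in 23.8% of them against 7.09%. CACGTG was also in 42.9% of the clock and 34.6% of the starch promoters, lists with most members higher. Over all genes, ACGTG was in 29.8% of the promoters of genes called higher and 24.4% of those called lower, and in 56.5% of the jasmonate and 53.1% of the ABA signalling promoters, lists with most members higher. The promoter of LHCA4 is shown because it has the most abundant transcript among the light-harvesting genes whose promoter holds the G-box. It was read from the TAIR10.1 genome of RefSeq (chr3:17495034-17495333, minus strand) and is written 5′ to 3′ towards the gene, with the CACGTG match in capitals.
LHCA4: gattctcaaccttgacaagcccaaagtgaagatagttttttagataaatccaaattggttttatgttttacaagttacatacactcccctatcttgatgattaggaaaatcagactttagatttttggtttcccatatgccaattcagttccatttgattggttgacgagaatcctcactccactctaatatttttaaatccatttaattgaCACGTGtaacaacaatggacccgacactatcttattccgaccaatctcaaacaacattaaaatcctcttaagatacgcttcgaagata
GATAAG, the core of the I-box of light-regulated genes, was in 26.7% of the photosystem promoters and in 14.5% of all promoters. It was in 19.0% of the light-harvesting and 6.25% of the photorespiration promoters. Among lists with most members higher, it was in 33.3% of the peroxisomal beta-oxidation and 26.1% of the jasmonate promoters. Over all genes, it was in 14.1% of the promoters of genes called higher and 16.4% of those called lower. A match describes the letters only, and binding of a factor was not measured.

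Chlorophyll synthesis and breakdown moved in opposite directions. All 22 tested genes of chlorophyll synthesis were lower (median log2 fold change -3.67), while 11 of 13 genes of chlorophyll breakdown were higher and none lower (median 3.09). CRD1, a subunit of the cyclase that closes the fifth ring of chlorophyll, stood at 1744, 1819.9, 1682, 1909 and 1741 CPM at 25 DAS and at 161, 65.5, 77.0, 98.0 and 36.8 CPM at 45 DAS (log2 fold change -4.34, SE 0.25, adjusted p 4.49e-14). HEMC, hydroxymethylbilane synthase, fell from 261 ± 24.4 to 28.8 ± 3.90 CPM (log2 fold change -3.18, adjusted p 6.48e-17). NYE1, the dechelatase that removes magnesium from chlorophyll a, stood at 11.1, 13.8, 8.10, 15.3 and 8.64 CPM at 25 DAS and at 318, 280.0, 169.7, 129.7 and 794 CPM at 45 DAS (log2 fold change 4.85, SE 0.47, adjusted p 3.97e-08). Its older libraries were all above the younger ones but spread widely among themselves, and without replicate 5 the log2 fold change was 4.22. NYC1, a chlorophyll b reductase, rose from 80.2 ± 6.39 to 682 ± 466 CPM (log2 fold change 3.09, adjusted p 1.45e-08), and CYP89A9, a cytochrome P450 that acts on late chlorophyll catabolites, from 3.29 ± 1.78 to 283 ± 89.7 CPM (adjusted p 3.82e-15, log2 fold change 6.26).

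The plastid's own gene expression went down with it. Of 79 plastid-encoded loci tested, 75 were lower and none higher (median -2.40), and their share of counts went from 6.47% ± 0.598 to 2.22% ± 0.728. Plastid transcripts carry few poly(A) tails in healthy chloroplasts, so oligo(dT)-primed counts are an uncertain measure of their level. All 17 nuclear genes for plastid ribosomal proteins were lower (median -3.80), RPL24 from 908 ± 64.4 to 129 ± 38.3 CPM (log2 fold change -2.81, adjusted p 4.37e-14) and PRPS20 from 417 ± 18.9 to 32.1 ± 8.45 CPM (log2 fold change -3.70, adjusted p 1.82e-16). PRPS20 overlaps another locus on the same strand. SIG1, a sigma factor of the plastid RNA polymerase, fell from 172 ± 21.5 to 34.5 ± 9.25 CPM (log2 fold change -2.31, adjusted p 3.48e-13), and 5 of the 8 genes of plastid transcription were lower and 1 higher. The pentatricopeptide repeat proteins, most of which process organelle RNA, had 6 of 70 tested members higher and 35 lower. Their median of -0.60 became 0.06 on library totals alone, with 19 higher and 21 lower. MRL1, which stabilises the Rubisco large-subunit transcript, fell from 81.7 ± 6.95 to 13.6 ± 4.15 CPM (log2 fold change -2.60, adjusted p 2.56e-12). Of 11 mitochondrion-encoded loci, 3 were higher, none was lower and 8 were not called. Their share of counts overlapped between the ages, at 0.0953%, 0.109%, 0.127%, 0.127% and 0.106% in the 5 younger and 0.124%, 0.142%, 0.470%, 0.0874% and 0.141% in the 5 older libraries. Replicate 3 at 45 DAS stood above all others.

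Most known regulators of senescence rose. Of the 29 tested, 26 were higher and 1 lower (median log2 fold change 3.77). NAC092, also known as ORE1 and a central activator of leaf senescence, stood at 6.53, 1.102, 3.24, 2.09 and 1.23 CPM at 25 DAS and at 129, 168, 85.5, 77.7 and 203 CPM at 45 DAS (log2 fold change 5.47, SE 0.40, adjusted p 1.56e-10). The groups lay far apart, and without replicate 1 at 25 DAS, the highest of the younger libraries, the log2 fold change was 6.07. NAC029, also known as NAP and an activator of chlorophyll loss and ABA synthesis, stood at 41.1, 18.7, 27.6, 16.0 and 8.64 CPM at 25 DAS and at 147, 285, 201, 154 and 533 CPM at 45 DAS (log2 fold change 3.52, SE 0.44, adjusted p 1.21e-06). NAC059 rose from 2 counts over all younger libraries to 441 over the older ones, a ratio of 259 with a 95% counting interval of 71.2 to 2144. Without younger replicate 1, which held 1 of the 2 counts, the ratio was 402. WRKY70, a regulator of salicylic acid responses, rose from 253 ± 139.7 to 1082 ± 399 CPM (log2 fold change 2.09, adjusted p 4.21e-05), although its replicate 1 at 45 DAS, with 379 CPM, lay within the range of the younger libraries.

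WRKY53, an early activator of senescence, was one of 7 named or marker genes whose call depended on the processing. It stood at 82.9, 33.1, 35.7, 26.4 and 45.7 CPM at 25 DAS and at 18.7, 96.2, 153, 320.3 and 559 CPM at 45 DAS (log2 fold change 2.36, SE 0.74, adjusted p 0.00928). The older replicate 1 was below every younger library, while replicates 4 and 5 were far above, and the call was lost without replicate 5 (log2 fold change 1.64) and when each group had its own variance, where the adjusted p, from limma, was 0.0770, the highest over the alternatives.

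**Figure D2:**
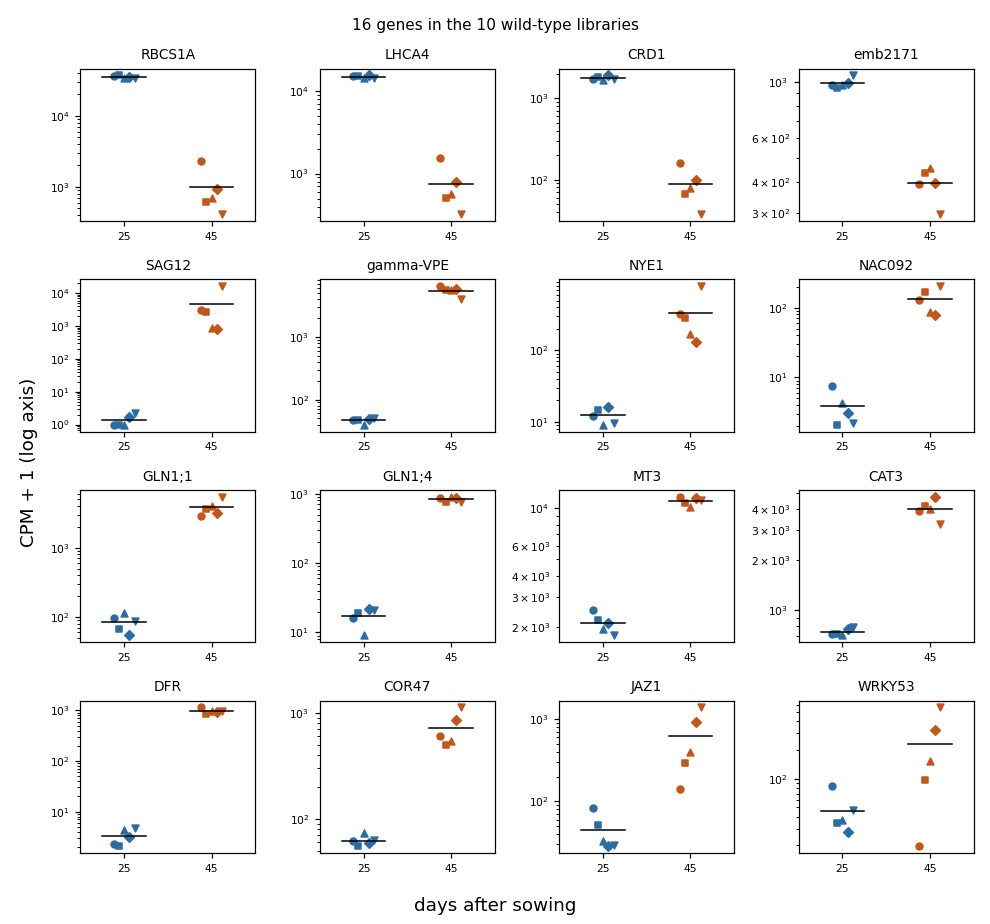
CPM + 1 on a log axis for 16 genes in the 5 libraries at 25 DAS (blue) and the 5 at 45 DAS (orange), with a marker shape per replicate number and lines at the group means. WRKY53 is the only one of the 16 whose groups overlap, and SAG12 spans 806 to 16424 CPM within 45 DAS.

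Proteases gave some of the most abundant transcripts of the old leaf. Of the 13 vacuolar and senescence proteases tested, 11 were higher and none lower (median 2.57), and the list went from 0.0985% ± 0.00112 to 2.18% ± 0.806 of all counts. The gene gamma-VPE, a vacuolar processing enzyme that activates other vacuolar proteins, stood at 47.0, 46.8, 38.9, 48.7 and 49.4 CPM at 25 DAS and at 6497, 5569, 5616, 5906 and 3983 CPM at 45 DAS (log2 fold change 6.90, SE 0.21, adjusted p 2.08e-18). Replicate 5 was the lowest at 45 DAS and still far above every younger library. SAG12, a cysteine protease used as a marker of senescence, had 2 counts over the 5 younger libraries and 3008, 2611, 863, 806 and 16424 CPM in the 5 older ones, a ratio of 18156 with a 95% counting interval of 5026 to 149924. Replicate 5 held several times more than any other, and replicates 3 and 4 the least. Without that library the ratio was 6609, and without younger replicate 4 or 5, which held 1 count each, it was 28664 or 32004. Among called genes whose ages did not overlap, the 5 largest gains in CPM were those of MT3, gamma-VPE, SAG12, AT1G07590 and MT2B.

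Autophagy, which delivers cell contents to the vacuole, also rose at the transcript level. Of 29 genes tested, 23 were higher and none lower (median 1.22). ATG8d, which encodes a ubiquitin-like protein of the autophagosome membrane, rose from 11.2 ± 2.69 to 76.0 ± 11.5 CPM (log2 fold change 2.78, adjusted p 7.28e-13). Its more abundant relative ATG8f rose from 196 ± 27.3 to 279.7 ± 28.5 CPM (log2 fold change 0.51, adjusted p 3.44e-04). Proteasome genes moved in both directions, with 13 of 38 subunit genes higher and 10 lower (median 0.09), at or below the background of 36.1% higher and 34.5% lower. On library totals alone 29 were higher and 1 lower, and without replicate 5 at 45 DAS the median was -0.00187. RPT2a, an ATPase of the regulatory particle, rose from 61.1 ± 8.85 to 167 ± 23.5 CPM (log2 fold change 1.45, adjusted p 1.93e-10). Of the 21 plant U-box ubiquitin ligases, 13 were higher and none lower, PUB17 going from 63.6 ± 11.8 to 164 ± 77.2 CPM (log2 fold change 1.36, adjusted p 4.08e-05) and PUB54 from 0.889 ± 1.35 to 19.8 ± 10.3 CPM (log2 fold change 4.36, adjusted p 3.12e-07).

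Transcripts of the cytosolic ribosome fell. Of 94 genes for cytosolic ribosomal proteins, 89 were lower and 1 higher (median -2.17, and -1.51 on library totals alone), and their share of counts went from 2.18% ± 0.111 to 0.880% ± 0.135. The most abundant called member, emb2171, a large-subunit protein, stood at 969, 945, 970.0, 990.2 and 1058 CPM at 25 DAS and at 393, 431, 454, 394 and 298 CPM at 45 DAS (log2 fold change -1.32, SE 0.12, adjusted p 4.14e-10). AT4G17390, another large-subunit protein, fell further, from 363 ± 25.2 to 35.4 ± 5.28 CPM (log2 fold change -3.35, adjusted p 6.48e-17). Both separated the ages fully, and AT4G17390 overlaps another locus on the same strand. Many ribosomal protein genes have near-identical copies, so reads may be split between them.

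TGGGCC, the core of the site II element, was in 54.9% of the 102 ribosomal protein promoters and in 41.0% of the 39 proteasome promoters, against 14.6% of all promoters. AAACCCTA, the telo box, was in 19.6% of the ribosomal and 5.13% of the proteasome promoters, against 5.21% of all. Over all genes, TGGGCC was in 14.9% of the promoters of genes called higher and 20.4% of those called lower, against 18.8% for all tested genes. The promoters below are those of the most abundant called member of each family that holds TGGGCC, emb2171 (chr3:1166950-1167249, plus strand), which fell, and RPT2a (chr4:14311983-14312282, plus strand), which rose, from the same RefSeq genome, 5′ to 3′, with matches on either strand in capitals.
emb2171: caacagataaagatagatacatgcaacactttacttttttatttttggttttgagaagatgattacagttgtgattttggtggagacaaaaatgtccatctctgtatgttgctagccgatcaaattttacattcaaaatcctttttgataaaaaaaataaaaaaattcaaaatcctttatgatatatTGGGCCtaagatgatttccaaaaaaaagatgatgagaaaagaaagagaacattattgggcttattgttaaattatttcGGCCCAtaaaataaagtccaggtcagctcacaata
RPT2a: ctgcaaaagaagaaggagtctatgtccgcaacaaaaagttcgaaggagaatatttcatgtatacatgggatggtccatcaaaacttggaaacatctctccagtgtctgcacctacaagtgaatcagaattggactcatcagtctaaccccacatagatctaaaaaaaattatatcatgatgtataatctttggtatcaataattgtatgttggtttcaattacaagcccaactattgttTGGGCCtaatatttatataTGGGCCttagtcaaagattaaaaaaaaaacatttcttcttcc
The matches began 35 and 113 bases upstream of the annotated start in emb2171 and 42 and 61 bases upstream in RPT2a.

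Genes that remobilise nitrogen rose with the proteases. Of 18 tested, 14 were higher and 4 lower (median 2.31), and their share of counts went from 0.0767% ± 0.00386 to 0.821% ± 0.129. GLN1;1, a cytosolic glutamine synthetase, which makes glutamine for export, stood at 97.3, 67.2, 115, 53.5 and 85.2 CPM at 25 DAS and at 2924, 3618, 3947, 3229.8 and 5449 CPM at 45 DAS (log2 fold change 5.52, SE 0.25, adjusted p 1.28e-15). GLN1;4, a second cytosolic form, rose from 16.4 ± 5.12 to 827 ± 71.8 CPM (log2 fold change 5.65, adjusted p 9.82e-18). Every older library was far above every younger one for both genes. Among the UMAMIT carriers of amino acids and other metabolites, 15 of 20 were higher and 3 lower. UMAMIT41 rose from 74.2 ± 12.3 to 343 ± 40.3 CPM (log2 fold change 2.21, adjusted p 6.28e-14) and UMAMIT40 from 3.35 ± 1.09 to 269 ± 53.2 CPM (adjusted p 4.17e-17, log2 fold change 6.34). The catabolism of amino acids was mixed, with 9 of 19 genes higher (47.4%) and 5 lower (26.3%), against 36.1% and 34.5% of all tested genes. HPD, which degrades tyrosine, rose from 86.1 ± 9.13 to 219 ± 84.9 CPM (log2 fold change 1.34, adjusted p 2.13e-07), and AT1G21400, a thiamin diphosphate-binding protein, from 27.7 ± 7.35 to 151 ± 24.5 CPM (log2 fold change 2.43, adjusted p 1.80e-13). For nucleic acids and their bases, 13 of 16 genes were higher and 2 lower, with the pyrimidine-degrading enzymes PYD1 going from 18.1 ± 4.598 to 255 ± 174 CPM (log2 fold change 3.82, adjusted p 9.95e-09) and PYD2 from 13.5 ± 2.39 to 63.3 ± 9.87 CPM (log2 fold change 2.202, adjusted p 8.92e-13).

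Carbohydrate genes moved in both directions. TPT, the triose phosphate carrier that exports the products of photosynthesis from the chloroplast, fell from 5035 ± 226 to 717 ± 246 CPM (log2 fold change -2.81, adjusted p 1.94e-12). GPT2, a glucose-6-phosphate carrier of the plastid envelope, had 1 count over the younger libraries and 268, 202, 209, 197 and 314 CPM in the older ones, a ratio of 1653 with a 95% counting interval of 296 to 65339. In all, 9 of 19 sugar transporters were higher (47.4%) and 6 lower (31.6%), against 36.1% and 34.5% of all tested genes. In starch metabolism 15 of 25 genes were higher and 5 lower (median 0.92). The debranching enzyme gene ISA3 rose from 2.32 ± 1.24 to 161 ± 23.7 CPM (log2 fold change 6.13, adjusted p 4.55e-16) and the beta-amylase gene BAM3 from 294 ± 49.0 to 558 ± 147 CPM (log2 fold change 0.92, adjusted p 1.25e-05). Genes known to rise in carbon-starved leaves went the other way in 8 of 10 tested cases, with 1 higher. BGLU30, a beta-glucosidase of this list, had 0 counts at 25 and 452 at 45 DAS but did not pass the filter on low counts. That filter asks for a minimum level in at least 5 libraries, so not all 5 older libraries reached it. BT2, a sugar- and nitrate-responsive BTB domain protein, stood at 685, 552, 482, 449 and 395 CPM at 25 DAS and at 18.7, 2.37, 4.81, 1.76 and 3.68 CPM at 45 DAS (log2 fold change -6.32, SE 0.90, adjusted p 7.44e-06). Replicate 1 kept the most at 45 DAS, and the log2 fold change without it was -7.43. AKINBETA1, a subunit of the SnRK1 energy-sensing kinase, fell from 112 ± 13.3 to 11.1 ± 2.096 CPM (log2 fold change -3.30, adjusted p 1.73e-09).

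Lipid synthesis and breakdown parted. All 16 genes of plastid fatty acid synthesis were lower (median -2.86), among them the acyl carrier protein gene ACP4, from 1362 ± 86.8 to 43.7 ± 34.3 CPM (log2 fold change -4.95, adjusted p 4.07e-11), and the enoyl reductase gene MOD1, from 121 ± 13.4 to 6.64 ± 2.56 CPM (log2 fold change -4.18, adjusted p 2.42e-15). Of the peroxisomal beta-oxidation genes, which break fatty acids down, 14 of 19 were higher and 3 lower (median 1.15). The acyl-CoA synthetase gene LACS7 rose from 4.03 ± 0.682 to 41.4 ± 8.49 CPM (adjusted p 5.37e-13, log2 fold change 3.35). The most abundant called member, the malate dehydrogenase gene PMDH2, which also serves photorespiration, fell from 1261 ± 64.6 to 399 ± 155 CPM (log2 fold change -1.66, adjusted p 1.19e-08). Cuticular wax genes were lower in 13 of 15 cases and higher in none, KCS1 from 45.2 ± 6.64 to 1.28 ± 1.096 CPM (log2 fold change -5.11, adjusted p 4.91e-13). CER6, the main wax elongase, fell from 172 ± 6.25 to 94.9 ± 40.7 CPM (log2 fold change -0.86, adjusted p 2.22e-04), but was not called with library totals as the scale (-0.18, edgeR adjusted p 0.409).

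**Figure D3:**
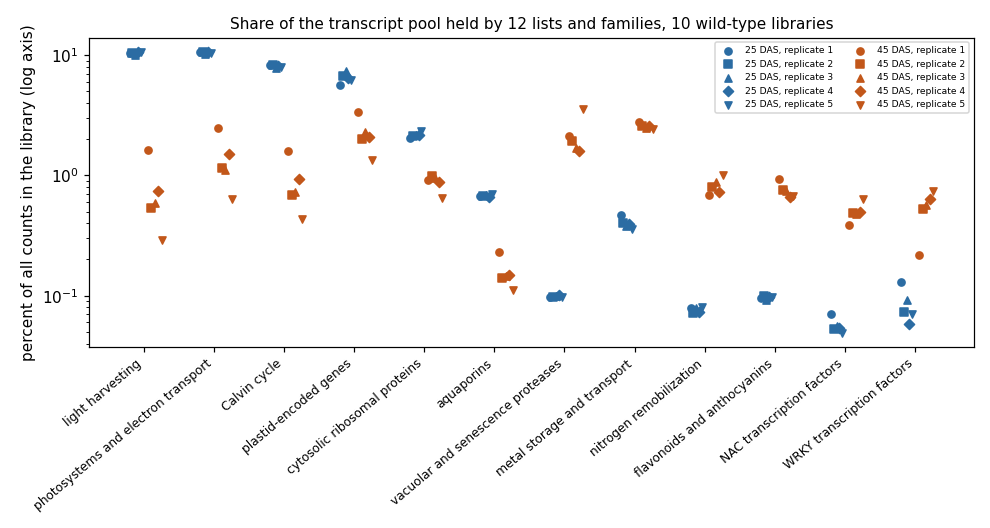
Percent of all counts held by 12 lists and families in each of the 10 wild-type libraries (log axis), blue for 25 and orange for 45 DAS, with a marker shape per replicate number. Light harvesting lies between 10.1% and 10.6% at 25 DAS and between 0.289% and 1.63% at 45 DAS.

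Hormone pathways differed in how far they moved. ABA signalling and response genes were higher in 19 of 27 cases and lower in 4 (median 1.85). COR47, a dehydrin, rose from 61.4 ± 6.64 to 723 ± 264 CPM (log2 fold change 3.56, adjusted p 1.27e-12), and RD29A, a classic ABA- and drought-responsive gene, from 6.73 ± 1.11 to 114 ± 20.7 CPM (adjusted p 1.46e-14, log2 fold change 4.09). The ABA synthesis and release list was split, with 3 of 7 higher and 3 lower (42.9% each, against 36.1% and 34.5% of all tested genes). BGLU18, which frees ABA from its glucose ester, fell from 63.1 ± 6.58 to 5.47 ± 2.79 CPM (log2 fold change -3.54, adjusted p 1.19e-09). Salicylic acid and defence genes were higher in 16 of 19 cases and lower in none. The ages were fully separated for only 7 of the 19, a smaller share than the 54.8% of all tested genes. DLO1, a salicylic acid hydroxylase, rose from 0.650 ± 0.447 to 50.0 ± 25.3 CPM (log2 fold change 6.19, adjusted p 3.43e-09). Its relative DMR6 stood at 149, 57.3, 142, 79.3 and 93.8 CPM at 25 DAS and at 67.6, 224, 226, 171 and 231 CPM at 45 DAS (log2 fold change 0.82, SE 0.30, adjusted p 0.0194), with replicate 1 within the younger range. The call of DMR6 was lost without replicate 2, 3 or 5 at 45 DAS.

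Jasmonate genes were higher in 17 of 22 cases and lower in 3 (median 2.28). JAR1, which joins jasmonate to isoleucine to make the active hormone, stood at 29.4, 35.8, 29.2, 35.5 and 32.1 CPM at 25 DAS and at 92.1, 99.4, 86.7, 76.8 and 89.1 CPM at 45 DAS (log2 fold change 1.45, SE 0.13, adjusted p 4.82e-10), tightly grouped at both ages. JAZ1, a repressor that is itself induced by jasmonate, stood at 82.3, 50.7, 32.4, 27.8 and 28.4 CPM at 25 DAS and at 142, 290.3, 396, 920.4 and 1388 CPM at 45 DAS (log2 fold change 3.80, SE 0.73, adjusted p 1.82e-04). Its older libraries spread widely, replicate 1 the lowest, and without replicate 5 the log2 fold change was 3.21. The share of counts held by the whole jasmonate list was 0.256%, 0.336%, 0.517%, 1.11% and 1.15% in the 5 older libraries against 0.100% to 0.126% in the younger ones.

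Ethylene genes were higher in 6 of 13 cases (46.2%) and lower in 3 (23.1%), against 36.1% and 34.5% of all tested genes. EIL1, a transcription factor of ethylene signalling, fell from 96.3 ± 11.5 to 20.1 ± 5.41 CPM (log2 fold change -2.25, adjusted p 8.04e-13). EFE, an ethylene-forming enzyme, went from 755 ± 75.8 to 984 ± 294 CPM (log2 fold change 0.38, adjusted p 0.0303) with overlapping groups, and that call was lost in 8 of the 21 alternative fits. Cytokinin genes were higher in 9 of 23 cases (39.1%) and lower in 12 (52.2%), and 11 and 10 on library totals alone. Their log2 fold changes ran from -5.61 to 7.19. Their share of counts overlapped between the ages, at 0.0796% ± 0.00271 and 0.0780% ± 0.00270. ARR6, a type-A response regulator that cytokinin induces, stood at 133, 123, 118, 119.6 and 116 CPM at 25 DAS and at 2.45, 2.37, 3.61, 2.65 and 1.47 CPM at 45 DAS (log2 fold change -5.61, SE 0.22, adjusted p 7.49e-17), with no overlap. ARR7, of the same type, fell from 186 ± 33.3 to 20.2 ± 4.47 CPM (log2 fold change -3.22, adjusted p 4.00e-14).

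Genes for metal storage and transport held a larger share of the older pool than of the younger one. The metal list was higher in 9 of 13 cases and lower in 3, and went from 0.400% ± 0.0427 to 2.57% ± 0.135 of all counts. MT3, a metallothionein, which is a small protein that binds metals through cysteines, stood at 2529, 2196, 1929, 2116 and 1784 CPM at 25 DAS and at 11658, 10706, 10147, 11444 and 11207 CPM at 45 DAS (log2 fold change 2.39, SE 0.16, adjusted p 1.30e-12). The 5 older libraries agreed closely. MT2A rose from 203 ± 26.9 to 2256 ± 169.7 CPM (log2 fold change 3.47, adjusted p 1.47e-16) and MT2B from 2232 ± 305 to 6225 ± 523 CPM (log2 fold change 1.48, adjusted p 3.20e-09). AT1G07590, annotated as a tetratricopeptide repeat protein, rose from 914 ± 183 to 5176 ± 1602 CPM (adjusted p 2.02e-11, log2 fold change 2.50). The metallothionein gene MT1A (AT1G07600, chr1:2338904-2339321, minus strand) lies wholly within the annotated span of AT1G07590 (chr1:2336477-2339391, TAIR10.1) on the same strand, and MT1A had 0 counts in all 20 libraries. Reads of these loci cannot be told apart in the counts, so the rise cannot be assigned to either.

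Antioxidant enzymes were lower in 11 of 15 cases and higher in 3, and 7 and 4 on library totals alone. Their share of counts, a scaling by library totals, went from 0.427% ± 0.00827 to 0.785% ± 0.0997. On the TMM scale their summed CPM overlapped between the ages, at 5201 to 5672 at 25 DAS and 5538 to 7014 at 45 DAS. CAT3, a catalase, stood at 723, 721, 708, 775 and 794 CPM at 25 DAS and at 3872, 4158, 3976, 4732 and 3254 CPM at 45 DAS (log2 fold change 2.43, SE 0.15, adjusted p 1.41e-13). In mean CPM, CAT3 alone gained more than the rest of its list lost. TAPX, the ascorbate peroxidase of thylakoids, fell from 170.2 ± 11.2 to 13.3 ± 6.42 CPM (log2 fold change -3.66, adjusted p 2.52e-14). In tocopherol synthesis 2 of 5 genes rose and 2 fell. VTE2, the phytyltransferase, rose from 13.2 ± 5.11 to 159 ± 39.8 CPM (log2 fold change 3.63, adjusted p 5.53e-12), VTE4, the last methyltransferase, rose from 32.0 ± 4.07 to 142 ± 15.6 CPM (log2 fold change 2.14, adjusted p 4.44e-13), VTE3 fell from 499 ± 33.7 to 71.2 ± 20.0 CPM (log2 fold change -2.81, adjusted p 9.35e-15) and VTE1, the cyclase, fell from 27.2 ± 8.76 to 3.42 ± 1.76 CPM (adjusted p 3.96e-09, log2 fold change -2.99). The list's median of -0.17 was 0.49 on library totals alone. Phosphate genes were higher in 10 of 14 cases and lower in 2 (median 1.89). PHO2, a ubiquitin-conjugating enzyme that limits phosphate transport, stood at 17.0, 27.0, 24.3, 27.8 and 21.0 CPM at 25 DAS and at 209, 177, 205, 199 and 186 CPM at 45 DAS (log2 fold change 3.05, SE 0.13, adjusted p 5.44e-16), a rise seen in all 5 older libraries.

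Clock genes were higher in 8 of 13 cases and lower in 4. GI, an evening gene, stood at 11.1, 14.3, 13.8, 10.4 and 7.41 CPM at 25 DAS and at 68.5, 71.8, 92.7, 107 and 84.0 CPM at 45 DAS (log2 fold change 2.84, SE 0.18, adjusted p 4.22e-13), with no overlap, and PRR7, a daytime repressor, rose from 64.2 ± 9.39 to 109 ± 11.7 CPM (adjusted p 1.79e-06, log2 fold change 0.77). The next 5 genes were chosen after their values were seen, because they peak at known times of day. The morning genes CCA1 and LHY fell, CCA1 from 99.6 ± 7.29 to 37.5 ± 15.2 CPM (log2 fold change -1.42, adjusted p 5.64e-07) and LHY from 61.6 ± 13.9 to 14.7 ± 2.13 CPM (adjusted p 1.87e-09, log2 fold change -2.08). The evening genes ELF4 and TOC1 rose, ELF4 from 0.490 ± 0.480 to 14.6 ± 6.51 CPM (log2 fold change 4.46, adjusted p 9.02e-09) and TOC1 from 8.57 ± 2.02 to 15.8 ± 5.05 CPM (log2 fold change 0.87, adjusted p 0.00911). LUX, another evening gene, went from 14.04 ± 2.94 to 12.8 ± 1.98 CPM and was not called (log2 fold change -0.14, adjusted p 0.661). An age effect and a different hour of collection cannot be told apart for these genes. The evening element AAAATATCT, on either strand, was in 4 of 14 clock promoters (28.6%) against 2.79% of all promoters, and in 3.79% of the promoters of genes called higher and 2.60% of those called lower. The promoter of TOC1 (chr5:24674663-24674962, plus strand, RefSeq TAIR10.1) carries it as its reverse complement, shown in capitals.
TOC1: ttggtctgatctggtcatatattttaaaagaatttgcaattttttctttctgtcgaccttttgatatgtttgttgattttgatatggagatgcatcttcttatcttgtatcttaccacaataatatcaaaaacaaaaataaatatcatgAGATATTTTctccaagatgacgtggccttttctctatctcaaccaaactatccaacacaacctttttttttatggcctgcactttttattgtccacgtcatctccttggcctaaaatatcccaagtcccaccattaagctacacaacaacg

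Of the genes that time flowering, 6 of 15 (40%) were higher and 4 (26.7%) lower, near the background of 36.1% and 34.5%. FT, the mobile flowering signal made in leaves, stood at 0.653, 0.551, 0, 1.39 and 1.23 CPM at 25 DAS and at 18.7, 19.7, 15.6, 23.8 and 36.1 CPM at 45 DAS (log2 fold change 4.82, SE 0.40, adjusted p 5.61e-11). All 5 older libraries were above all younger ones. SVP, a repressor of flowering, rose as well, from 63.5 ± 8.90 to 138 ± 30.4 CPM (log2 fold change 1.11, adjusted p 1.04e-07). FLC, the vernalization-controlled repressor, had 4 counts at 25 and 9 at 45 DAS over all libraries and was too low to be tested.

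Most genes for flavonoid pigments and for glucosinolates, which are defence compounds, rose. In flavonoid and anthocyanin synthesis, 13 of 18 genes were higher and 4 lower (median 4.01). CHS, chalcone synthase and the entry enzyme, rose from 277 ± 24.8 to 2228 ± 309.8 CPM (log2 fold change 3.01, adjusted p 4.07e-13). DFR, which commits the pathway to anthocyanins, stood at 1.31, 1.102, 3.24, 2.09 and 3.70 CPM at 25 DAS and at 1145, 867, 952, 928 and 965 CPM at 45 DAS (log2 fold change 8.81, SE 0.30, adjusted p 9.82e-18). MYB75, an activator of anthocyanin synthesis, rose from 0.545 ± 0.768 to 165 ± 28.1 CPM (log2 fold change 7.93, adjusted p 1.45e-14), and without replicate 3 at 25 DAS its log2 fold change was 8.52. MYB90, its close relative, had 0 counts at 25 DAS and 307, 377, 320.2, 169 and 274 CPM at 45 DAS. Against a floor of 3 counts over the younger group, MYB90 was at least 659-fold higher. Glucosinolate genes were higher in 17 of 23 cases and lower in 4. CYP83B1, of the indole branch, rose from 159 ± 27.1 to 572 ± 223 CPM (log2 fold change 1.84, adjusted p 3.48e-07). MAM3, which lengthens methionine side chains, had 0 counts at 25 DAS and 113, 60.7, 84.3, 90.9 and 73.7 CPM at 45 DAS, at least 191-fold higher against the same floor.

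Growth-related families went down almost throughout. All 16 aquaporins tested were lower (median -2.74), the tonoplast channels TIP1;1 from 611 ± 44.3 to 43.0 ± 13.3 CPM (log2 fold change -3.83, adjusted p 1.62e-15) and TIP1;2 from 1597 ± 109 to 106 ± 54.8 CPM (log2 fold change -3.92, adjusted p 1.81e-13). All 8 genes of DNA replication and the cell cycle were lower, TSO2, a ribonucleotide reductase subunit, from 47.8 ± 8.48 to 3.16 ± 1.68 CPM (log2 fold change -3.82, adjusted p 2.28e-12). TSO2 overlaps another locus on the same strand. Of the expansins, which loosen cell walls, 14 of 16 were lower and none higher (median -4.84). EXPA1 stood at 387, 349, 327, 358 and 322 CPM at 25 DAS and at 22.8, 4.73, 4.81, 6.18 and 1.47 CPM at 45 DAS (log2 fold change -5.42, SE 0.40, adjusted p 3.88e-10), and without replicate 1 at 45 DAS, its highest older library, the log2 fold change was -6.44. EXPB3 fell from 37.9 ± 6.86 to 1.05 ± 0.858 CPM (log2 fold change -5.09, adjusted p 1.36e-13), and by more without replicate 2 at 45 DAS (-5.71). Arabinogalactan and fasciclin-like proteins were lower in 27 of 32 cases and higher in 2, with AGP12 going from 502 ± 71.7 to 28.2 ± 22.2 CPM (log2 fold change -4.12, adjusted p 2.93e-08) and FLA18 from 131 ± 11.9 to 10.5 ± 3.42 CPM (log2 fold change -3.61, adjusted p 2.34e-15). Tubulins were lower in 14 of 15 cases, with TUA6 going from 269 ± 26.8 to 74.8 ± 14.1 CPM (log2 fold change -1.85, adjusted p 8.62e-12) and TUA2 from 114 ± 8.02 to 6.66 ± 3.07 CPM (adjusted p 9.02e-15, log2 fold change -4.07).

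The xyloglucan endotransglucosylase/hydrolases, which cut and rejoin wall polymers, were lower in 11 of 13 cases. The 1 member called higher, XTH24, stood at 141, 101, 109, 69.5 and 77.8 CPM at 25 DAS and at 1743, 1821, 1460.1, 1535 and 2490.4 CPM at 45 DAS (log2 fold change 4.18, SE 0.21, adjusted p 5.42e-15). XTH10, with 20 counts at 25 and 324 at 45 DAS, did not pass the filter on low counts, since too few libraries reached its minimum level. The family's share of counts, a scaling by library totals, went from 0.134% ± 0.0125 to 0.254% ± 0.0438. On the TMM scale its summed CPM overlapped between the ages, at 1492 to 1973 at 25 DAS and 1624 to 2880 at 45 DAS. SAUR genes, which auxin induces in growing cells, were lower in 26 of 34 cases and higher in 8 (median -4.63). AT4G34760 went from 77.1 ± 5.75 to 0.978 ± 2.19 CPM, with all 6 counts of the older libraries in replicate 1 and a log2 fold change of -6.10 (edgeR adjusted p 1.64e-12), while the most abundant called member, AT4G00880, rose from 38.5 ± 6.39 to 119 ± 30.1 CPM (log2 fold change 1.61, adjusted p 3.27e-09). Aux/IAA repressors of auxin signalling were lower in 12 of 22 cases and higher in 4, and 11 and 7 on library totals alone. IAA7 stood at 385, 347, 310.4, 317 and 343 CPM at 25 DAS and at 17.1, 6.31, 3.61, 3.53 and 1.47 CPM at 45 DAS (log2 fold change -5.69, SE 0.31, adjusted p 3.07e-13), with its highest older value in replicate 1, and IAA8 fell from 151 ± 10.3 to 20.7 ± 6.15 CPM (log2 fold change -2.87, adjusted p 3.54e-14). In the list of secondary wall and xylem genes, 4 of 7 were lower and 2 higher. XCP2, a xylem cysteine peptidase, had 504 counts at 25 DAS and 1 at 45 DAS, a ratio of the younger to the older level of 429 with a 95% counting interval of 76.7 to 16989.

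**Figure D4:**
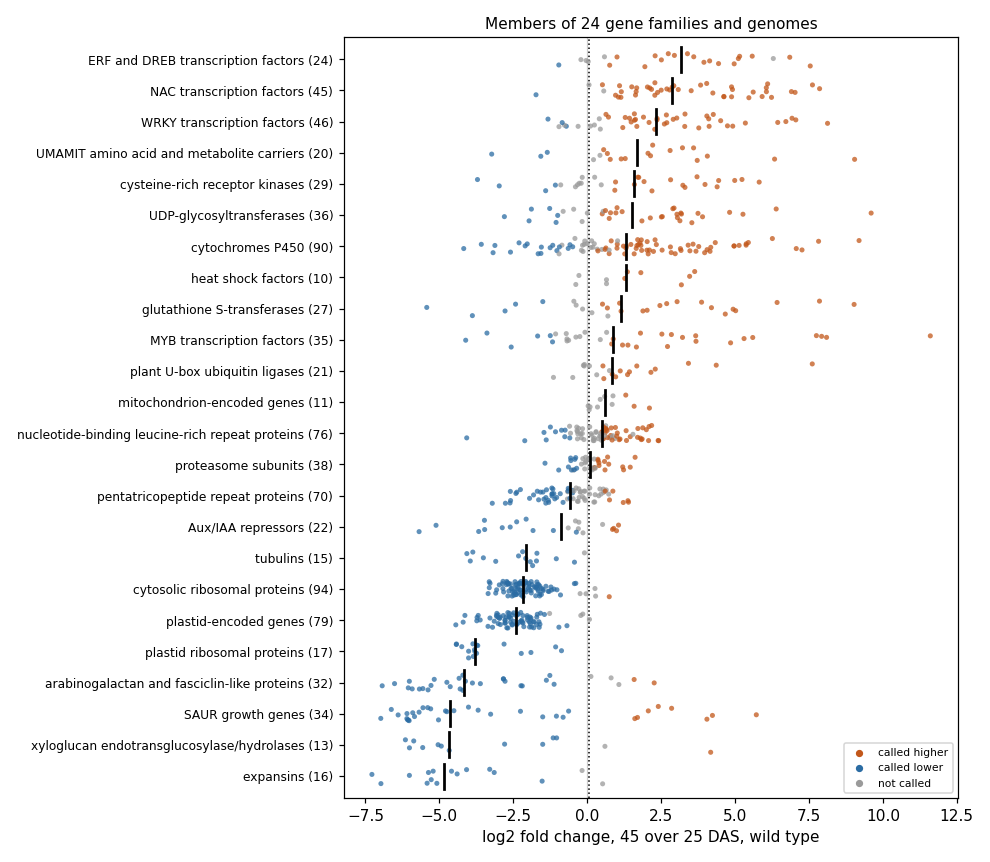
Log2 fold change of each tested member (points, one row per gene family or organelle genome, number tested in brackets) between 25 and 45 DAS in wild type, with black bars at each median and a dotted line at the median of all genes. The NAC, ERF and WRKY families lie mostly on the right, expansins, SAUR genes and ribosomal proteins mostly on the left, and proteasome subunits in the middle, where library totals alone would place 29 of 38 on the right.

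Transcription factor families had a larger share of members called higher than the 36.1% of all tested genes. Of 45 NAC genes tested, 42 were higher and 1 lower (median 2.87), and of 46 WRKY genes, 36 were higher and 3 lower (median 2.32). These families share members with the list of senescence regulators, which was chosen for its link with ageing. NAC036, the most abundant NAC gene called, stood at 139, 41.3, 68.9, 16.7 and 29.6 CPM at 25 DAS and at 231, 382, 550.1, 591 and 529.6 CPM at 45 DAS (log2 fold change 2.93, SE 0.47, adjusted p 2.42e-05). Replicate 1 was the highest at 25 DAS and the lowest at 45 DAS, and without the younger one the log2 fold change was 3.54. WRKY26 rose from 2.77 ± 1.78 to 71.6 ± 13.0 CPM (log2 fold change 4.51, adjusted p 6.19e-14). ERF and DREB factors were higher in 18 of 24 cases and lower in 1, ERF4 from 69.6 ± 25.1 to 344 ± 121 CPM (log2 fold change 2.296, adjusted p 2.10e-05) and DREB1A from 0.548 ± 0.905 to 23.4 ± 9.86 CPM (adjusted p 6.74e-09, log2 fold change 5.11). The value of DREB1A rested on 4 counts at 25 DAS and was 6.40 without replicate 4. Heat shock factors were higher in 6 of 10 cases and lower in none, HSF A4A from 21.9 ± 7.97 to 202 ± 54.8 CPM (log2 fold change 3.18, adjusted p 1.24e-08) and HSFA8 from 4.44 ± 1.37 to 49.8 ± 11.2 CPM (log2 fold change 3.46, adjusted p 3.46e-11). Chaperones were higher in 6 of 8 cases and lower in none. BZIP60, a factor of the unfolded protein response, rose from 74.3 ± 28.6 to 281 ± 137 CPM (log2 fold change 1.91, adjusted p 2.92e-04), and HSP90.1 from 1.16 ± 1.254 to 15.6 ± 2.67 CPM (log2 fold change 3.63, adjusted p 4.13e-09). MYB factors were higher in 19 of 35 cases and lower in 6.

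Families of detoxification and of surface and intracellular perception had members called in both directions. Those of detoxification and the cysteine-rich receptor kinases were more often higher, and less often lower, than the background of 36.1% and 34.5%. Cytochromes P450 were higher in 55 of 90 cases (61.1%) and lower in 18 (20%), with CYP71B19 going from 2.26 ± 0.772 to 101 ± 12.6 CPM (log2 fold change 5.38, adjusted p 5.06e-16). UDP-glycosyltransferases, which attach sugars to small molecules, were higher in 25 of 36 cases (69.4%) and lower in 6 (16.7%). UGT72E1, which acts on lignin precursors, rose from 33.1 ± 9.78 to 291 ± 75.7 CPM (log2 fold change 3.13, adjusted p 6.10e-13), and UGT84A2, which acts on sinapate, from 11.4 ± 4.00 to 106 ± 12.8 CPM (log2 fold change 3.17, adjusted p 1.13e-13). Glutathione S-transferases were higher in 17 of 27 cases (63.0%) and lower in 5 (18.5%), GSTU19 going from 310.3 ± 25.4 to 663 ± 196 CPM (log2 fold change 1.09, adjusted p 9.18e-07). ERD9, of the same family, fell from 107 ± 12.7 to 2.35 ± 1.69 CPM (log2 fold change -5.43, adjusted p 1.05e-15), and overlaps GSTU18 on the same strand. Cysteine-rich receptor kinases were higher in 17 of 29 cases (58.6%) and lower in 4 (13.8%). CRK4 rose from 12.6 ± 6.91 to 125 ± 43.7 CPM (log2 fold change 3.31, adjusted p 4.65e-10) and CRK21 fell from 41.5 ± 7.65 to 3.17 ± 2.05 CPM (log2 fold change -3.71, adjusted p 1.56e-10). Immune receptors of the nucleotide-binding leucine-rich repeat type were higher in 31 of 76 cases (40.8%), near the background of 36.1%. They were lower in 10 (13.2%), below the background of 34.5%. Library totals alone gave 55 higher and 3 lower. SNC1, an immune receptor, went from 111 ± 10.8 to 178 ± 40.5 CPM (log2 fold change 0.67, adjusted p 8.94e-05) with overlapping groups, and AT4G19530, of the same class, fell from 62.3 ± 8.66 to 3.85 ± 1.98 CPM (adjusted p 5.05e-13, log2 fold change -4.08).

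The 5 older libraries differed among themselves far more than the younger ones. Beyond counting noise, libraries of one age varied with a coefficient of 10.96% at 25 DAS and 30.0% at 45 DAS, and log2 CPM of all tested genes correlated at 0.951 to 0.975 between younger and at 0.844 to 0.948 between older libraries. Photosystem transcripts held 2.48%, 1.16%, 1.12%, 1.49% and 0.643% of the counts in older replicates 1 to 5. The protease list held 2.11%, 1.92%, 1.698%, 1.59% and 3.57% in the same order. Replicate 5 thus had the fewest photosystem and the most protease transcripts. Replicate 1 had the most photosystem transcripts, yet its protease share was the next highest after replicate 5. Defence and jasmonate lists were lowest in replicate 1, with 0.0743% and 0.256% of counts. The edgeR fit assumes 1 spread per gene for all groups, whereas the spread differed between these groups. Allowing each group its own variance gave 9789 calls.

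**Figure D5:**
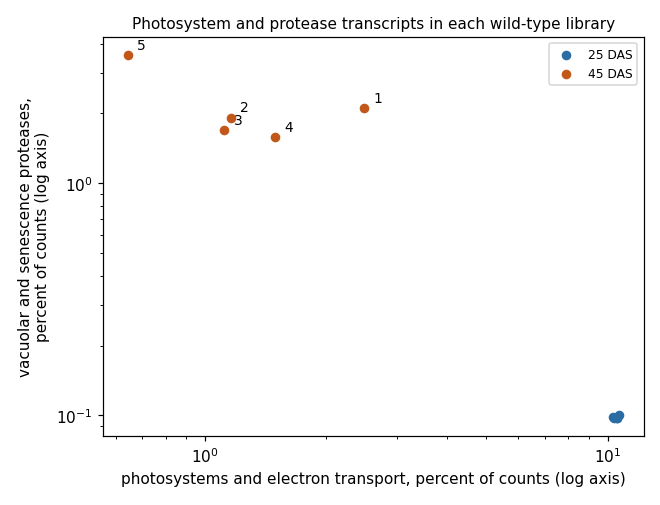
Percent of counts held by photosystem and electron transport genes (x axis) and by vacuolar and senescence proteases (y axis), both on log axes, in each wild-type library, with the 5 older libraries labelled by replicate number. The younger libraries fall on one spot near 10.5% and 0.1%, while the older ones run from 0.643% to 2.48% and from 1.59% to 3.57%.

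Cell type markers were examined beside these changes. All 4 mesophyll markers fell, with summed shares of 5.27% to 5.49% at 25 DAS and 0.161% to 0.794% at 45 DAS, but they are themselves photosynthesis genes. All 4 epidermis markers fell too, LTP1, a lipid transfer protein, from 1347 ± 31.0 to 24.1 ± 39.0 CPM (log2 fold change -5.78, adjusted p 2.32e-06) and ATML1, a regulator of epidermal identity, from 32.1 ± 4.72 to 7.18 ± 2.86 CPM (log2 fold change -2.15, adjusted p 1.34e-09). Guard cell markers were split, with 2 of 4 tested higher and 2 lower, and 2 higher and none lower on library totals alone. Of the phloem markers, SUC2 stood at 140.1 ± 25.1 and 156 ± 17.8 CPM (adjusted p 0.340) and AHA3 at 142 ± 12.6 and 151 ± 38.9 CPM (adjusted p 0.593), neither called, APL rose from 21.1 ± 3.39 to 32.9 ± 4.58 CPM (log2 fold change 0.64, adjusted p 0.00520), a call lost on thinned counts (edgeR adjusted p 0.223), and SEOR1 fell from 38.5 ± 7.24 to 1.44 ± 1.77 CPM (log2 fold change -4.73, adjusted p 3.28e-11). Leaving out single libraries, the change of LTP1 on the log2 scale ran from -7.78 to -5.50 and that of SEOR1 from -5.78 to -4.44. At 45 DAS, LTP1 stood at 93.7, 3.94, 9.63, 7.94 and 5.16 CPM, with replicate 1 far above the rest. On library totals alone 3 of the 4 phloem markers were higher and 1 lower. The 6 flower markers summed to at most 5.22 CPM at 25 and 9.63 CPM at 45 DAS in any library, with AP1 and LFY at 0 counts throughout, and the 4 root markers to at most 3.24 and 1.63 CPM. The part of cell type makeup in the changes with age was not tested.

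Whether the change with age differed in the mutant was tested as an interaction over all 20 libraries. It passed for 465 genes (3.21%), more positive in the mutant for 1.83% of genes and more negative for 1.37%. Of the 30 photosystem genes, 12 had a more positive interaction, since they fell less in the mutant, PSAE1 by 1.23 on the log2 scale (adjusted p 0.0165). Of the 13 genes of chlorophyll breakdown, 7 had a more negative one, NYE1 with -2.57 (adjusted p 0.0395). After thinning every library to 615317 counts these were 6 and 0 genes. Older wild-type replicate 5 stood apart as high for NYE1 (794 CPM, nearest other 318) and for the share of the chlorophyll breakdown list. How far the interactions of that list rest on this library was not tested. No interaction passed among the 22 jasmonate, 46 WRKY or 16 fatty acid synthesis genes, which does not show that their changes were equal.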

How the data were processed

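Libraries were made by 3′ RNA sequencing of rosette leaf RNA with barcoded oligo(dT) primers and Tn5, per the labels. The authors deposited raw counts, whole numbers for 37336 loci in each library and not normalized. STAR 2.7.8a and the TAIR10 build are named in the submitters' processing notes. The counting tool, annotation, use of strand and use of molecular identifiers are not given in the sources used here. Names came from the RefSeq annotation of TAIR10.1, which holds 99.2% of the loci, and promoters from that genome. Of 151 genes named or used as markers, 33 overlap another locus, so their reads are uncertain.

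All 20 libraries entered an edgeR 4.0.16 quasi-likelihood F-test (R 4.3.3, limma 3.58.1) with a mean per group, filterByExpr, TMM scaling and Benjamini-Hochberg adjustment over all tested genes, with a threshold of 0.05. CPM are scaled by the TMM-adjusted library totals. Self-tests on simulated data with 200 of 14503 genes changed in this contrast recovered 86% of the 4-fold and 55% of the 2-fold changes, with 6 false calls. The simulation had rises and falls in equal number, younger wild-type means and the same spread in all groups. In the data 70.6% of genes were called and the ages differed in spread, so these rates may not carry over.

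The 37 pathway lists were written from general knowledge and the 24 families found by annotation names. Of their 2546 distinct members, 1471 passed the filter and were tested. Members and lists were chosen with earlier results of these data known, so counts over a list are descriptions, and no list was tested. A few families were corrected by name after a first count, where another protein shared a symbol. In each list and family the named genes are the called member with the highest mean CPM and the one with the smallest p. To these were added the 5 largest gains and losses of CPM among called genes whose ages did not overlap. Also named were 7 senescence and flowering genes, and members of lists with under 6 called members. Genes named outside this rule are marked as such. Ratios and floors of small counts cover counting error only.

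Alternatives were DESeq2 size factors and the DESeq2 1.42.0 Wald test, upper-quartile scaling, other filters (any gene with a count, or a mean of at least 5 CPM), thinned counts, the wild-type libraries alone, organelle genes left out, a variance per group, a replicate block, each wild-type library left out, and, chosen after seeing the data, library totals without TMM. Python 3.11.15, SciPy 1.17.1 and matplotlib 3.10.9 were used for the rest.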

Additional observations from a re-analysis of the deposited data

Results flagged for a closer look

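In 350 sets of 5 values (named genes and tested markers with at least 20 counts in a library at that age, and shares of the lists and families), 33 had a library set apart from the other 4 by a wide gap. The rule would set apart about 1 in 20 sets of independent, normally distributed values. These sets share libraries and members, so whether 33 exceeds chance was not tested. Replicate 1 at 25 DAS stood apart as high for NYC1 at 91.4 CPM (nearest other 79.0), ERF4 at 114 CPM (nearest other 66.8), HSF A4A at 35.9 CPM (nearest other 20.3) and LHCB1.3 at 14824 CPM (nearest other 14333). Replicate 3 at 25 DAS stood apart as low for gamma-VPE at 38.9 CPM (nearest other 46.8). Replicate 4 at 25 DAS stood apart as low for FDH at 197 CPM (nearest other 258). It also stood apart as high for the share of counts of vacuolar and senescence proteases at 0.100% (nearest other 0.0985%). Replicate 5 at 25 DAS stood apart as high for KCS1 at 56.8 CPM (nearest other 44.6). It also stood apart as high for the share of counts of cuticular wax at 0.0899% (nearest other 0.0801%) and tubulins at 0.146% (nearest other 0.135%). Replicate 1 at 45 DAS stood apart as high for PSAE1 at 379.8 CPM (nearest other 205), RBCS1A at 2340.0 CPM (nearest other 934), BT2 at 18.7 CPM (nearest other 4.81), EXPA1 at 22.8 CPM (nearest other 6.18), RBCS3B at 862 CPM (nearest other 222), LHCB1.3 at 822 CPM (nearest other 187), CA1 at 510.2 CPM (nearest other 79.4), LTP1 at 93.7 CPM (nearest other 9.63) and FDH at 57.9 CPM (nearest other 25.2). It also stood apart as low for WRKY70 at 379 CPM (nearest other 1163). It also stood apart as low for the share of counts of heat shock factors at 0.0362% (nearest other 0.0599%) and cytochromes P450 at 0.601% (nearest other 0.670%). Replicate 3 at 45 DAS stood apart as high for the share of counts of mitochondrion-encoded genes at 0.470% (nearest other 0.142%). Replicate 5 at 45 DAS stood apart as high for NYC1 at 1499.7 CPM (nearest other 587), PYD1 at 559 CPM (nearest other 220.1), SAG12 at 16424 CPM (nearest other 3008) and NYE1 at 794 CPM (nearest other 318). It also stood apart as high for the share of counts of vacuolar and senescence proteases at 3.57% (nearest other 2.11%), chlorophyll breakdown at 0.631% (nearest other 0.326%) and ethylene at 0.339% (nearest other 0.250%). It also stood apart as low for the share of counts of antioxidant enzymes at 0.614% (nearest other 0.802%), flowering and plant age at 0.0650% (nearest other 0.0875%) and pentatricopeptide repeat proteins at 0.107% (nearest other 0.147%).

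The change with age differed between wild type and mutant by the interaction test for 28 named or marker genes. The difference, mutant minus wild-type log2 fold change, was positive for CRD1 (1.09), LHCA4 (1.36), PSBR (0.99), PSAE1 (1.23), GGT1 (0.81), TPT (1.04), PMDH2 (0.90), CER6 (1.02), ARR7 (0.99), ARR6 (2.26), TAPX (1.04), PRR7 (0.66), IAA7 (1.83), FLA18 (1.05), UGT72E1 (1.03) and ATCG00220 (0.98). It was negative for NYC1 (-1.56), PHO2 (-0.70), CHS (-1.19), DFR (-2.53), UGT84A2 (-1.71), GSTU19 (-1.03), UMAMIT40 (-1.33), SAG12 (-11.59), NYE1 (-2.57), VTE2 (-1.55), VTE4 (-0.88) and KAT1 (-1.70). SAG12 had 2 counts over the younger wild-type libraries, so its fitted value depends on the prior count.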

How the results depend on the processing

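Of 136 named and marker genes called, 129 kept their call and direction in every one of the 21 alternative fits that tested them. The exceptions, none of which changed direction, were EFE, DMR6, WRKY53, CER6, APL on thinned counts, and the guard cell markers MYB60 and FAMA on library totals. Of the uncalled markers SUC2 and AHA3, both were called higher on library totals, and AHA3 ran from -0.14 (without replicate 5 at 45 DAS) to 0.126 with 1 library left out. The count of 10239 calls ran from 7630 on thinned counts to 12561 with all genes that had a count, and from 10009 to 10264 with 1 wild-type library left out. Library totals alone gave 8108 higher and 3288 lower genes. The median of the cytokinin list turned to 0.17 on thinned counts and 0.0207 with only the wild-type libraries, that of tocopherol synthesis to 0.49 and that of the pentatricopeptide repeat proteins to 0.0594 on library totals. The proteasome median ran from -0.00187 to 0.125 with 1 library left out. The causes of these shifts were not tested, beyond the smaller gene sets of the thinned and wild-type fits. Interactions among list members numbered 114 and fell to 48 on thinned counts. Among photosystem genes they numbered 24 with a variance per group and 6 on thinned counts, and among chlorophyll breakdown genes 0 on thinned counts. Setting genes with 0 counts at one age to their bound moved the medians of secondary wall and xylem genes to -3.99, of SAUR genes to -4.50 and of expansins to -4.54.

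Replicate numbers did not pair the libraries. Deviations of same-numbered libraries correlated at -0.23, -0.05, 0.04, -0.04 and -0.08, and a replicate block gave 10199 calls, 5189 higher and 5010 lower. No library correlated best with its own number. Genes with few counts at one age, such as DREB1A, have folds that single libraries move by over 1.5 times. Leaving out the older replicate 1 moved several falls further, LHCB1.3 to -6.71, RBCS3B to -7.00, PETE2 to -5.70, ACP4 to -5.62 and IAA7 to -6.56. Leaving out the younger replicate 3 moved HSP90.1 to 4.29 and PUB54 to 5.48.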
